A study of Homo sapiens with 6 samples.

Results

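The 35 genes described here carry out or control the synthesis of cholesterol and fatty acids. They were taken by symbol from a list that was drawn up with earlier results of these data known and that sets no threshold on their change, and all 35 were found among the 15953 genes of the tables. RNA-seq was conducted on EJ cells, a bladder cancer line of human origin, in 3 libraries of shNC cells (control) and 3 of shSTIL cells (STIL-knockdown). By the study's methods both groups were stable lentiviral lines, and they shared everything the labels name except the hairpin. The labels do not give the number or the sequence of the hairpins, and they do not say whether the libraries of a group came from separate cultures, so P-values measure the spread between these libraries only, which may be technical. The column headings of the tables write siNC and siSTIL where the labels write shNC and shSTIL, and the libraries were grouped by the labels.

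Cells make cholesterol from acetyl-CoA through the mevalonate pathway, which ends in squalene, and through a second series of enzymes that close squalene into a ring and trim it. Both series, and much of fatty acid synthesis, are driven by SREBPs, transcription factors that are made as membrane proteins of the endoplasmic reticulum. When sterols are scarce, SCAP escorts an SREBP to the Golgi for cleavage. When sterols are plentiful, the INSIG proteins hold SCAP back, and the liver X receptors turn on genes of sterol export. SREBPs bind promoters together with factors that bind CCAAT boxes and GC boxes.

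Promoter windows of RefSeq (GRCh38.p14, from 250 bases before to 50 bases after the start) were at hand for 30 of the 35 genes. Only the first listed window of each gene symbol was used, so any other start of a gene was not read. ABCG1, ACAT2, FASN, FDFT1 and SQLE were not matched. The word CCAAT, on either strand, was in 18 of the 30 windows (60.0%), against 37.1% of the windows of 9268 well-expressed genes (mean log2 CPM of 1 or more) and 35.7% of 27305 windows in all. Of the 19 matched genes that were lower in STIL-knockdown cells, 13 held it. The other windows with the word were those of MVK, DHCR7, SC5D, SREBF2 and STARD4, which were not called lower. Whether the word goes with the fall was not tested. The GC box word GGGCGG was in 28 of the 30 windows (93.3%), against 72.4% and 44.6%, and the E box word CACGTG was in 5 (16.7%), against 10.3% and 7.43%. The word TCACNCCAC, one spelling of the sterol regulatory element, was in the window of SREBF2 alone (3.33% of the 30, against 1.06% and 1.15%). These shares describe letters, not bound sites, and a window without a word says only that the letters are not there.

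Stretches with CCAAT boxes are shown to place the word before genes called lower and before one that was not. HMGCS1, INSIG1, LSS and NSDHL were lower in STIL-knockdown cells, whereas STARD4 was not past the threshold. Each stretch runs 5′ to 3′ on the gene's strand in GRCh38.p14, from the far end of the window to the last base before the gene in GENCODE 29. Capitals mark CCAAT or its reverse complement ATTGG. The stretches are chr5:43313513-43313662 on the minus strand for HMGCS1, chr7:155297628-155297775 on the plus strand for INSIG1, chr21:46228825-46229024 on the minus strand for LSS, chrX:152830813-152830966 on the plus strand for NSDHL and chr5:111512591-111512785 on the minus strand for STARD4.
HMGCS1: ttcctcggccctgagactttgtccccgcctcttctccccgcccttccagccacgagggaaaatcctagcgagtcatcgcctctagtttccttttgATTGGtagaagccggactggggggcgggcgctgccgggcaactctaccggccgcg
INSIG1: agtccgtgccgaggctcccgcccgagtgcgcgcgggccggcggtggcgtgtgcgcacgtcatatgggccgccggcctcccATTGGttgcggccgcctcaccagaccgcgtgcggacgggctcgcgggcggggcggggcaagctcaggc
LSS: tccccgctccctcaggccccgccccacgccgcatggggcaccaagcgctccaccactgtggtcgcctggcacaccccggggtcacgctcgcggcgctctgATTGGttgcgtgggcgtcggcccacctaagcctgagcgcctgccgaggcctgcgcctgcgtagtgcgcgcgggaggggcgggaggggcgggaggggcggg
NSDHL: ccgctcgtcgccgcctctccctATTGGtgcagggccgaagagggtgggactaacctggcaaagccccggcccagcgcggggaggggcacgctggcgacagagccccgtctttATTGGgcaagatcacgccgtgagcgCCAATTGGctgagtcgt
STARD4: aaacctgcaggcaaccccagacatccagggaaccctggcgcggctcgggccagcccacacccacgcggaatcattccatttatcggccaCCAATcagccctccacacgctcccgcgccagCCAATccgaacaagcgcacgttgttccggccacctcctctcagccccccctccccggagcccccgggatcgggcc
The printed stretch of NSDHL held the word 4 times, 2 of them sharing letters. The stretch of STARD4 held it 2 times, and the other 3 stretches held it 1 time each. The whole windows of HMGCS1 and NSDHL, which run past the printed stretches, held it 2 and 5 times.

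Values are log2 CPM, the reads of a gene scaled to the size of its library on the log2 scale, as the authors deposited them. The control libraries held 16214768 to 16431245 reads and the STIL-knockdown libraries 16734465 to 16901635. STIL, the targeted gene (chromosome 1, 47250139 to 47314147, minus strand, GRCh38), was at 5.98, 6.10 and 6.01 in the control libraries and at 4.05, 4.06 and 4.01 after STIL knockdown, which left 25.2% of its control level. Of the epithelial markers, KRT7, KRT8 and KRT18 were at 6.37 or above in every library, while 7 other measured epithelial and urothelial markers, KRT5, EPCAM, CDH1 and UPK2 among them, were at 1.12 or below. The summed level of the 10 epithelial and urothelial markers was 1076 to 1135 CPM in the control libraries and 970.2 to 1002 CPM after STIL knockdown, a sum of unlike changes, since KRT8 fell (log2 fold change -0.70), KRT7 rose (0.49) and KRT18 did not pass (-0.05). Markers of other cell types were close to absent, with summed levels of 0.943 to 1.34 CPM for the endothelial and 1.17 to 2.59 CPM for the adipocyte and hepatocyte markers, and of 11.62 to 15.05 CPM for the immune markers, nearly all of it CD68 (log2 CPM of 3.46 to 3.88). PTPRC and CD3E were not analysed here. The summed level of 5 mesenchymal markers moved with the groups, from 1575 to 1616 CPM in the control libraries and from 991 to 1008 CPM after STIL knockdown. VIM and FN1 fell (log2 fold changes -0.68 and -1.19), ZEB2 rose (0.74), and ZEB1 (-0.03) and CDH2 (-0.31) did not pass. The part of either marker list in the results was not tested.

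As a group, the synthesis genes were lower in STIL-knockdown cells. At a limma adjusted p under 0.01, 23 of the 35 genes were lower (65.7%), 1 was higher (2.86%) and 11 did not pass. Over all genes, 23.6% were lower and 23.5% were higher. Most of the 35 genes are well expressed, and among the 11319 well-expressed genes, which include 33 of them, 31.4% were lower and 30.5% were higher. The median log2 fold change of the 35 genes was -0.43, beside 0.01 over all genes.

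The libraries of each group lay close together. For 26 of the 35 genes every STIL-knockdown library was below every control library, a pattern shared by 30.5% of all genes and 38.5% of the well-expressed genes. Each such gene had p = 0.1 in an exact two-sided permutation test, the smallest p that 3 libraries against 3 allow. Of the called genes, SQLE, ACAT2, HMGCS1, FASN, INSIG1 and TM7SF2 had a log2 fold change under -1 (6 of 35), as did 2.97% of the well-expressed genes. The summed level of the 35 genes was 7480.9, 7497.4 and 7459.5 CPM in control and 5247.7, 5116.3 and 5168.4 CPM after STIL knockdown, 69.2% of the control level. In bulk RNA, fewer cells that express a gene and less of its RNA per cell cannot be told apart.

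**Figure D1:**
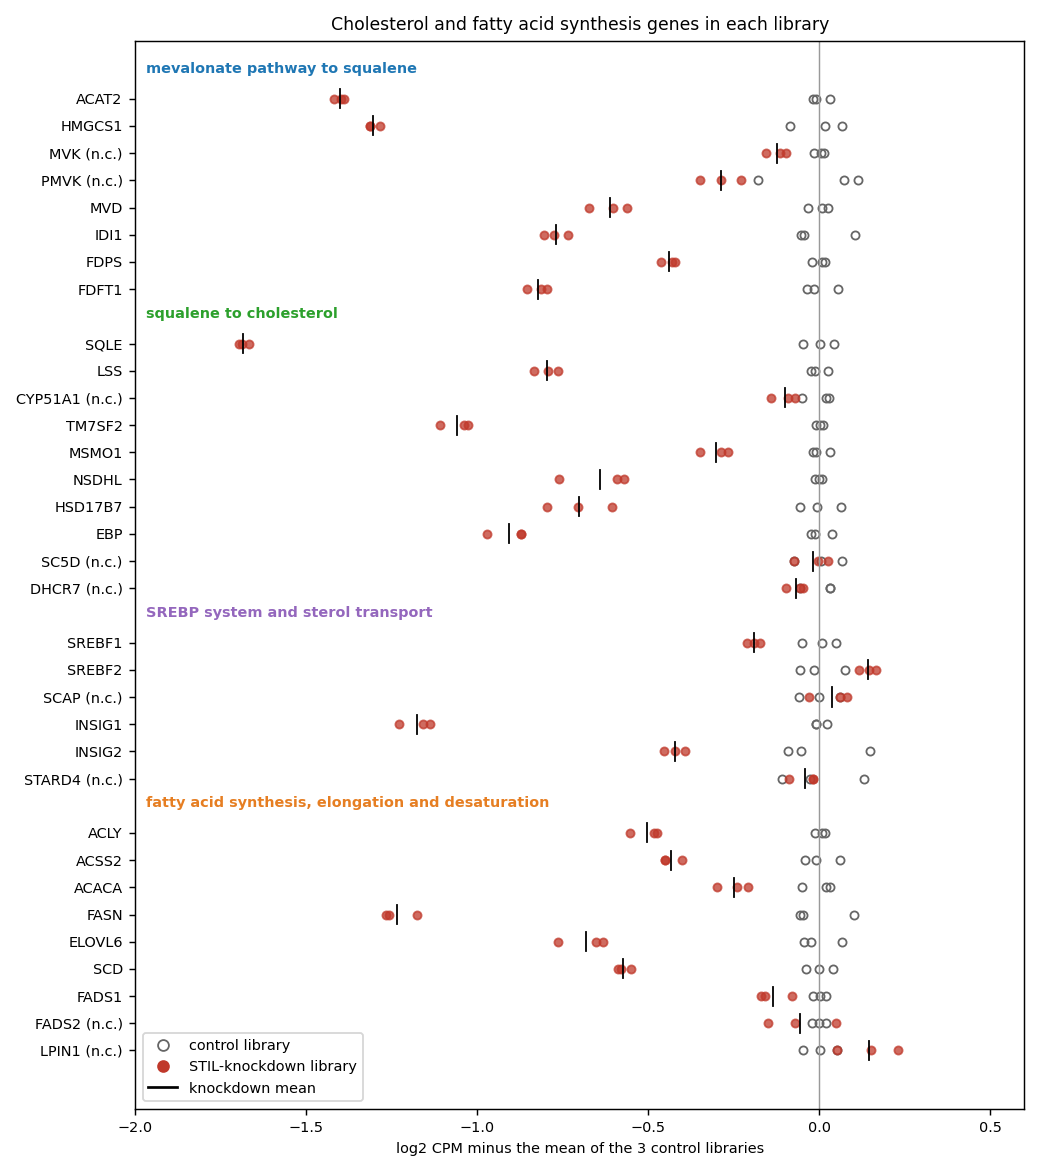
Log2 CPM of 33 genes in each library minus the mean of the 3 control libraries, with open circles for control libraries, filled circles for STIL-knockdown libraries, a bar at the knockdown mean and n.c. for genes not past the adjusted p threshold; ABCA1 and ABCG1, with few reads, are left out. The filled circles of SQLE, ACAT2, HMGCS1, FASN, INSIG1 and TM7SF2 lie more than 1 below the control mean, and those of SREBF2 and LPIN1 lie above it.

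The mevalonate series, from acetyl-CoA to squalene, had 6 of 8 genes lower and a median log2 fold change of -0.69. Its summed level in STIL-knockdown cells was 58.8% of the control level. The largest changes were in its first enzymes. ACAT2, the cytosolic thiolase that joins acetyl-CoA units, was at 7.72, 7.77 and 7.73 in the control libraries and at 6.34, 6.35 and 6.32 after STIL knockdown. The groups were well apart, and the spread within each was small. The log2 fold change of ACAT2 was -1.40 (standard error, SE, 0.03 and limma adjusted p = 2.21e-12), which left 37.9% of the control level. HMGCS1, which makes HMG-CoA, was at 7.59, 7.74 and 7.69 in the control libraries and at 6.39, 6.36 and 6.36 after STIL knockdown, again without overlap. Its log2 fold change was -1.30 (SE 0.04, limma adjusted p = 2.22e-11).

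Exons of ACAT2 overlap those of TCP1 and SOD2 on the opposite strand, and its estimated read count was fractional in 4 of 4 count tables, so part of its reads was shared out among genes by the authors' counting. Counts were whole in all 4 for 31 of the 35 genes, but only in 2, 2 and 3 of them for IDI1, FDFT1 and ELOVL6. TCP1 was at 7.97, 8.06 and 8.01 in the control libraries and at 7.55, 7.57 and 7.55 after STIL knockdown. SOD2 was at 8.41, 8.44 and 8.39 and then at 8.57, 8.53 and 8.51. The log2 fold changes were -0.46 for TCP1 and 0.12 for SOD2. Whether the overlap touched the value of ACAT2 was not tested.

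FDFT1, squalene synthase and the last enzyme of the series, was at 7.77, 7.75 and 7.84 in the control libraries and at 6.93, 6.97 and 6.99 after STIL knockdown. The groups did not overlap. The log2 fold change was -0.82 (SE 0.03, limma adjusted p = 3.31e-10). IDI1, the isomerase of the isoprenoid unit, fell by 0.77 on the log2 scale, MVD, the decarboxylase that makes this unit, by 0.61 and FDPS, which joins the units to farnesyl diphosphate, by 0.44. The kinases MVK and PMVK, which stand between HMG-CoA reduction and MVD, did not pass the threshold. MVK had a fold change of -0.12 in log2 (limma adjusted p = 0.0380) and PMVK one of -0.29 (limma adjusted p = 0.0129). For both kinases the STIL-knockdown libraries were nevertheless all below the control libraries. PMVK passed with edgeR (adjusted p = 0.00278), with limma on well-expressed genes (adjusted p = 0.00406) and with limma without control replicate 2 (adjusted p = 0.00554). It did not pass with DESeq2 (adjusted p = 0.0256), and its limma adjusted p reached 0.111 when 1 library was left out.

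From squalene to cholesterol, 7 of 10 genes were lower, with a median log2 fold change of -0.67 and a summed level of 74.4% of the control level. SQLE, squalene epoxidase and a rate-limiting enzyme of the pathway, was at 7.29, 7.38 and 7.34 in the control libraries and at 5.65, 5.64 and 5.67 after STIL knockdown. No other of the 35 genes fell as far. The fall gave a log2 fold change of -1.68 (SE 0.04, limma adjusted p = 1.54e-12), which left 31.1% of the control. By fall, SQLE ranked 52 among the 11319 well-expressed genes. TM7SF2, a sterol C14 reductase, was at 5.81, 5.82 and 5.83 in the control libraries and at 4.71, 4.79 and 4.78 after STIL knockdown. The groups did not overlap, with a log2 fold change of -1.06 (SE 0.05, limma adjusted p = 5.21e-10). Exons of TM7SF2 overlap those of VPS51 on the same strand, and VPS51 had a fold change of -0.05 in log2 (limma adjusted p = 0.494).

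EBP, which shifts the double bond of the sterol ring, was at 6.51, 6.52 and 6.57 in the control libraries and at 5.66, 5.66 and 5.56 after STIL knockdown. The groups did not overlap, and the log2 fold change was -0.91 (SE 0.04, limma adjusted p = 1.01e-09). LSS, which closes the ring and makes lanosterol, fell by 0.80 on the log2 scale. HSD17B7, NSDHL and MSMO1, which act in the removal of the C4 methyl groups, fell by 0.70, 0.64 and 0.31.

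The remaining 3 genes of the late series were close to their control level. CYP51A1, the lanosterol demethylase that acts right after LSS, had a fold change of -0.10 in log2 (limma adjusted p = 0.0178), and its STIL-knockdown libraries were all below its control libraries. DHCR7, the reductase that makes cholesterol from its last precursor in one branch, was at 8.31, 8.22 and 8.31 in the control libraries and at 8.22, 8.18 and 8.23 after STIL knockdown. SC5D, the desaturase before it, was at 6.54, 6.68 and 6.62 and then at 6.64, 6.61 and 6.54. The groups overlapped for both. The 95% interval of the change, in log2, was -0.14 to 0.0022 for DHCR7 and -0.11 to 0.08 for SC5D. Intervals of this width lie far from the fall of SQLE, although a miss of the threshold does not show that a gene was unchanged. Over both series 13 of 18 enzymes were called. The log2 fold change was negative for 18 of 18, although that of SC5D was 0.03 after median centring. It was negative for 7919 of all 15953 genes and for 5742 of the 11319 well-expressed genes.

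**Figure D2:**
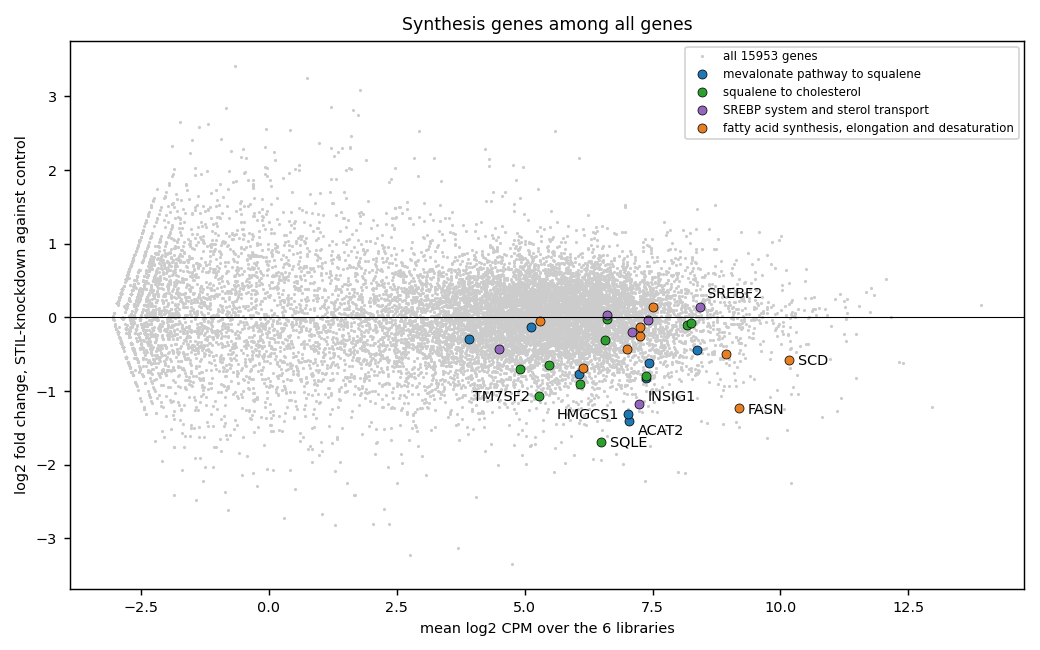
Log2 fold change (STIL-knockdown against control) against the mean log2 CPM over the 6 libraries for all 15953 genes (grey) and for 33 synthesis genes coloured by role. Most coloured points lie below 0, and SQLE, ACAT2, HMGCS1, FASN, INSIG1 and TM7SF2 lie below -1.

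The SREBP system and its sterol carrier did not move one way. Of its 6 genes, 3 were lower, 1 was higher and 2 did not pass, with a median log2 fold change of -0.12 and a summed level of 88.0% of the control level. INSIG1, a sterol-dependent brake on SCAP and itself a target of SREBPs, changed most. It was at 7.81, 7.84 and 7.81 in the control libraries and at 6.66, 6.59 and 6.68 after STIL knockdown. This was a log2 fold change of -1.18 (SE 0.03, limma adjusted p = 1.42e-11), which left 44.2% of the control. INSIG2, the second brake, was at 4.62, 4.86 and 4.66 in the control libraries and at 4.32, 4.26 and 4.29 after STIL knockdown. Its log2 fold change was -0.42 (SE 0.07, limma adjusted p = 1.80e-04). For both brakes the groups did not overlap.

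The fall of INSIG1 was the larger in value. The log2 CPM of INSIG1 minus that of INSIG2 was 3.19, 2.98 and 3.15 in control and 2.34, 2.32 and 2.39 after STIL knockdown. The groups did not overlap, and the change of this difference was -0.75 (exact two-sided permutation test, p = 0.1, adjusted over 4 gene pairs p = 0.2). With 3 libraries against 3 such a test cannot pass 0.05. The call of INSIG2 was lost when 1 STIL-knockdown library was left out, with a limma adjusted p of 0.0136 without replicate 1, 0.0166 without replicate 2 and 0.0177 without replicate 3.

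The genes of the SREBPs themselves changed little, and in opposite directions. SREBF1, whose products act chiefly on fatty acid synthesis, was at 7.24, 7.20 and 7.14 in the control libraries and at 6.98, 7.02 and 7.00 after STIL knockdown. SREBF2, whose product acts chiefly on cholesterol synthesis, was at 8.43, 8.30 and 8.34 in the control libraries and at 8.50, 8.47 and 8.52 after STIL knockdown. The groups of each gene did not overlap, but the gap was small. The log2 fold change of SREBF1 was -0.19 (SE 0.03, limma adjusted p = 3.61e-04) and that of SREBF2 was 0.14 (SE 0.04, limma adjusted p = 0.00372). SREBF1 minus SREBF2 was -1.19, -1.10 and -1.20 in control and -1.52, -1.45 and -1.52 after STIL knockdown. The shift between the groups was -0.33 (exact two-sided permutation test, p = 0.1, adjusted over 4 gene pairs p = 0.2). By limma on all genes as deposited, SREBF2 was the only one of the 35 genes called higher.

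Both calls were lost in several of the fits that left out 1 library. In such fits fewer of all genes were called as well (4900 to 5638, against 7509 with all libraries). The limma adjusted p of SREBF1 was 0.0111 without control replicate 2, 0.0135 without STIL-knockdown replicate 1 and 0.0149 without STIL-knockdown replicate 3. That of SREBF2 was 0.0411 and 0.0577 without control replicates 2 and 3, and 0.0581, 0.0359 and 0.0683 without STIL-knockdown replicates 1, 2 and 3. The direction of each gene was kept in all 6 fits that left out 1 library. Exons of SREBF1 overlap those of RAI1 on the opposite strand, and RAI1 had a fold change of 0.35 in log2 (limma adjusted p = 4.88e-05).

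SCAP, the escort of SREBPs, was at 6.66, 6.54 and 6.60 in the control libraries and at 6.68, 6.57 and 6.66 after STIL knockdown. STARD4, a carrier that moves cholesterol between membranes, was at 7.33, 7.57 and 7.41 and then at 7.42, 7.42 and 7.35. The groups overlapped for both genes, and the log2 fold changes were 0.04 (95% interval -0.06 to 0.13) and -0.04 (95% interval -0.15 to 0.07).

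**Figure D3:**
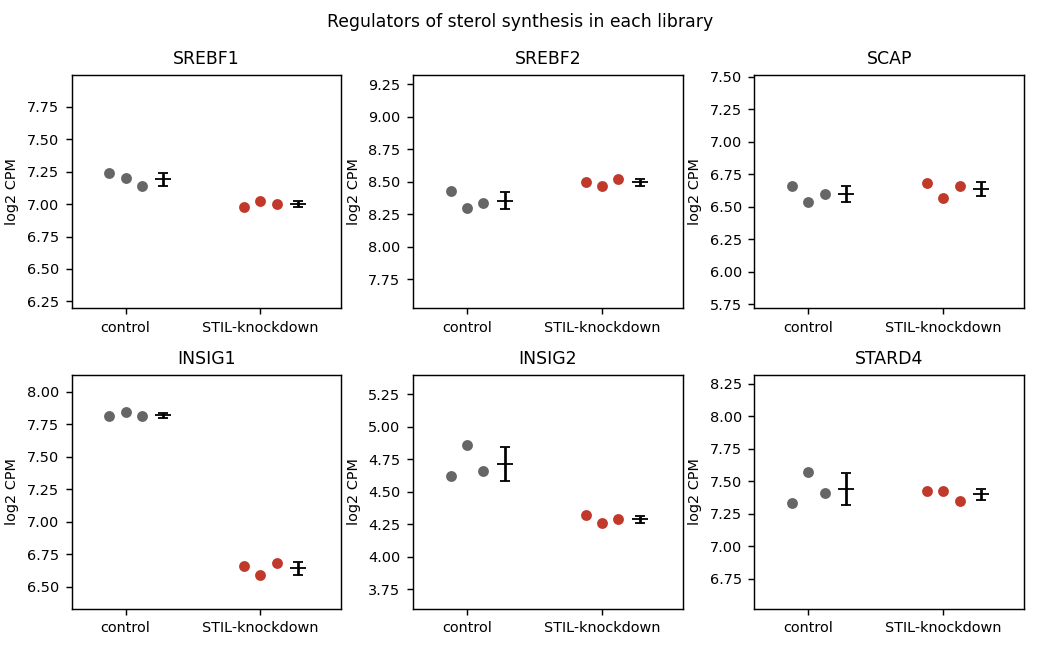
Log2 CPM of 6 regulators and carriers of sterols in each library (points) with the mean and SD of each group (n = 3) beside them; each panel spans the same log2 range around the gene's own level. INSIG1 shows the widest gap, INSIG2 and SREBF1 a smaller fall, SREBF2 a small rise, and SCAP and STARD4 overlap between the groups.

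In fatty acid synthesis, elongation and desaturation, 7 of 9 genes were lower, with a median log2 fold change of -0.43 and a summed level of 66.0% of the control level. FASN, the fatty acid synthase, was at 9.91, 9.75 and 9.76 in the control libraries and at 8.63, 8.54 and 8.55 after STIL knockdown. The gap between the groups was several times the spread within them. The fall gave a log2 fold change of -1.23 (SE 0.04, limma adjusted p = 8.40e-11), which left 42.5% of the control. ELOVL6, which lengthens the palmitate that FASN makes, was at 6.44, 6.55 and 6.46 in the control libraries and at 5.85, 5.83 and 5.72 after STIL knockdown. This was a log2 fold change of -0.68 (SE 0.05, limma adjusted p = 3.93e-08). SCD, which puts a double bond into the products, was at 10.42, 10.50 and 10.46 and then at 9.91, 9.87 and 9.88. The groups of ELOVL6 and SCD did not overlap, and the log2 fold change of SCD was -0.57 (SE 0.03, limma adjusted p = 6.64e-09).

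The enzymes that supply FASN fell by smaller values. ACLY, which makes acetyl-CoA from citrate, fell by 0.50 on the log2 scale, ACSS2, which makes it from acetate, by 0.43 and ACACA, the carboxylase that makes malonyl-CoA, by 0.25. FADS1 and FADS2, neighbouring desaturases of polyunsaturated fatty acids, stayed close to their control level. FADS1 was called lower at a log2 fold change of -0.13 (SE 0.03, limma adjusted p = 0.00485), whereas FADS2 had -0.05 (limma adjusted p = 0.439). The call of FADS1 was lost when any library other than STIL-knockdown replicate 1 was left out, with limma adjusted p of 0.0351, 0.0392 and 0.0270 without control replicates 1, 2 and 3, and of 0.0402 and 0.0492 without STIL-knockdown replicates 2 and 3. FADS1 minus FADS2 shifted between the groups by -0.08 (exact two-sided permutation test, p = 0.4, adjusted over 4 gene pairs p = 0.4, in a design that cannot go below 0.1), and by -0.15 and -0.0083 without STIL-knockdown replicates 1 and 2, so its size is not settled. Exons of FADS1 and FADS2 overlap on opposite strands, and those of FADS2 also overlap FEN1, which had a log2 fold change of -1.29.

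LPIN1, a phosphatidate phosphatase of glycerolipid synthesis, was at 7.39, 7.44 and 7.49 in the control libraries and at 7.67, 7.49 and 7.59 after STIL knockdown, with every STIL-knockdown library at or above the highest control library. Its log2 fold change of 0.15 did not pass (limma adjusted p = 0.0114). LPIN1 passed with edgeR (adjusted p = 0.00264) and with DESeq2 (adjusted p = 0.00381). It also passed with limma after quantile normalization, after median centring and on well-expressed genes (adjusted p = 0.00644, 0.00181 and 0.00363). When 1 library was left out it did not pass in any fit, with a limma adjusted p of up to 0.145.

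The genes of sterol export, ABCA1 and ABCG1, which liver X receptors turn on when sterols build up, were hardly expressed. ABCA1 had 4, 13 and 9 reads in the control libraries and 12, 4 and 4 reads after STIL knockdown. ABCG1 had 0 reads in each control library and 0, 1 and 2 reads after STIL knockdown. A count of 0 allows up to 3 reads per library, by counting error alone, and a difference in either gene was not detectable at this depth. ABCA1 had a log2 fold change of -0.39 (SE 0.39, limma adjusted p = 0.431). No fold is given for ABCG1, whose fitted value depends on the prior count. The shift of ABCA1 minus ABCG1 has no fixed size either. It was -3.59 with edgeR and -1.76 with a prior count of 0.5. With 1 library left out it ran from -1.57 (without STIL-knockdown replicate 1) to -0.48 (without STIL-knockdown replicate 3).

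Genes of the same and neighbouring pathways that are outside the 35 were read from 7 further lists. Of 92 listed genes 91 were measured, of which 37 were lower (40.7%), 24 were higher (26.4%) and 30 did not pass, with a median log2 fold change of -0.10. Over all genes 23.6% were lower and 23.5% higher, and of the well-expressed genes 31.4% and 30.5%. Each of these lists held called genes in both directions.

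Of 10 further genes of SREBP processing and sterol sensing, 4 were lower and 5 were higher, with a median log2 fold change of -0.02. TMEM97, a sterol-responsive membrane protein, fell by 1.07 on the log2 scale, RNF145, a ubiquitin ligase with a sterol-sensing domain, by 0.82 and MBTPS2, one of the proteases that release SREBPs, by 0.77. Of 9 genes of other sterol and isoprenoid branches, 3 were lower and 2 were higher, with a median of -0.26. FNTA, a subunit of the enzymes that attach isoprenoids to proteins, rose by 0.55 on the log2 scale, and NUS1, which acts in dolichol synthesis, fell by 0.55.

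Of 12 measured genes of cholesterol uptake, trafficking and esterification, 6 were lower and 2 were higher, with a median of -0.17. VLDLR, a lipoprotein receptor, fell by 1.01 on the log2 scale, GRAMD1C, a sterol transfer protein, by 0.47 and SCARB1, the receptor of high-density lipoprotein, by 0.43. GRAMD1C was not past the threshold without control replicate 3 (limma adjusted p = 0.0130) or without STIL-knockdown replicates 1, 2 and 3 (limma adjusted p = 0.0187, 0.0196 and 0.0259).

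Of 23 further genes of fatty acid elongation, desaturation and activation, 8 were lower and 4 were higher, with a median of -0.05. SCD5, a second stearoyl-CoA desaturase, was at 3.79 ± 0.07 in the control libraries and 2.04 ± 0.17 after STIL knockdown (SD, n = 3), a difference of -1.75 in log2 (limma adjusted p = 3.58e-08). ACACB, the mitochondrial counterpart of ACACA, fell by 1.11 and SLC25A1, the mitochondrial citrate carrier, by 0.74. Of 20 genes of fatty acid oxidation, the opposite pathway, 11 were lower and 5 were higher, with a median of -0.21. HADH and ECHS1, enzymes of the oxidation spiral, and ETFB, which passes on its electrons, were lower, with log2 fold changes of -0.96, -0.65 and -0.65.

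Of 11 further genes of glycerolipid synthesis, 3 were lower and 4 were higher, with a median of 0.17. AGPAT4, an acyltransferase, had a log2 fold change of 0.48, LPIN3, a relative of LPIN1, fell by 0.48 and AGPAT2 by 0.39. The limma adjusted p of LPIN3 was 0.0117 and 0.0108 without STIL-knockdown replicates 1 and 2, and that of AGPAT2 was 0.0108 without STIL-knockdown replicate 3. Of 6 further genes of the liver X receptors and their targets, 2 were lower and 2 were higher, with a median of 0.14. LPCAT3, a phospholipid-remodelling enzyme, fell by 0.59, while the receptor genes RXRB and NR1H3 rose by 0.56 and 0.54 on the log2 scale.

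**Figure D4:**
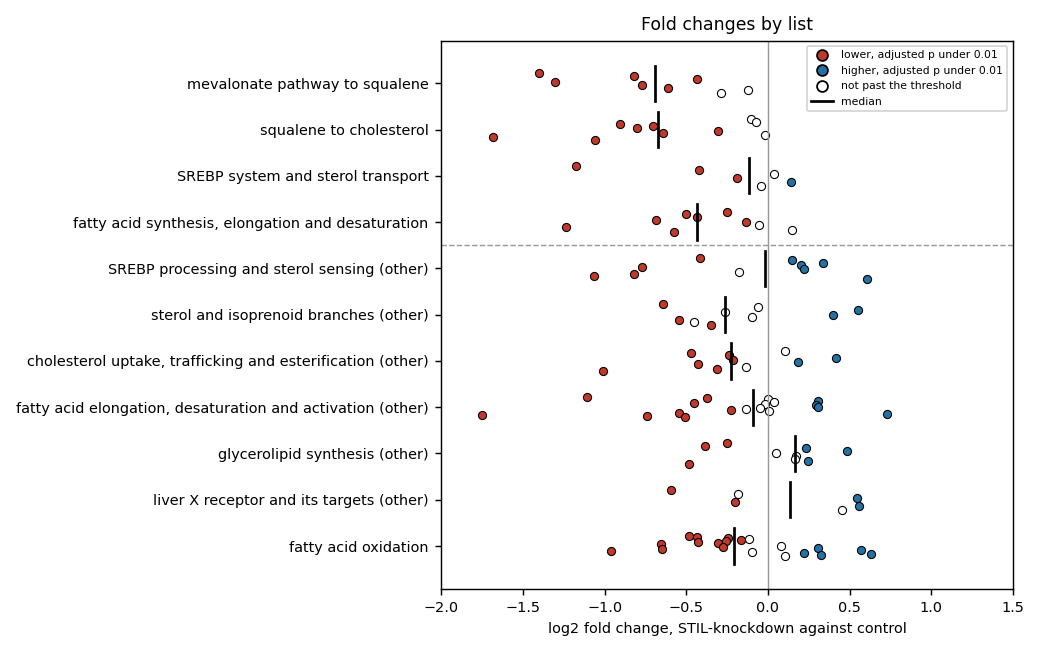
Log2 fold change (STIL-knockdown against control) of each well-expressed gene, by list, with the synthesis genes above the dashed line, the further lists under it, and the median of the genes shown as a bar. The mevalonate, squalene-to-cholesterol and fatty acid synthesis lists have no called gene above 0, whereas each further list has called genes on both sides.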

How the data were processed

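RNA was extracted with Trizol and sequenced by the authors on the BGISEQ-500 instrument. They filtered reads with SOAPnuke and, per the submitters' processing notes, used Bowtie2, RSEM, limma and the hg38 build, with no version given in the sources used here. The deposited tables hold log2 CPM of 15953 genes for all 6 libraries, computed by the authors with edgeR, and estimated counts from RSEM, without normalization, for 1 control and 3 STIL-knockdown libraries. The strand setting of the kit is not given in the sources used here.

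The groups were compared with limma 3.58.1 (R 4.3.3; eBayes with a mean-variance trend) on the log2 CPM of all genes as deposited, without a replicate block, with Benjamini-Hochberg adjustment over all genes and a threshold of 0.01. The lowest deposited value was -3.05, which belongs to 0 reads, and fold changes understate the change of genes with few reads. Reads were recovered from the log2 CPM with a prior count of 2, and recomputed values differed from the deposited ones by at most 3.36e-05. Between 87.4% and 87.7% of the recovered values per library were whole within 0.01 reads. Where count tables were used, they differed by at most 0.0633 reads. Recovered reads were rounded for DESeq2 1.42.0 and the quasi-likelihood test of edgeR 4.0.16. The fits were tested on simulated data. Differences between 4 pairs of related genes were tested by exact permutation, two-sided, over 20 labellings.

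The 35 genes and all lists were chosen with earlier results of these data known. Each of the 35 genes was named. Values of each library were given for the 3 genes of each role with the largest absolute log2 fold change and a mean log2 CPM of at least 1, for SREBF1, SREBF2, SCAP, INSIG1, INSIG2, ABCA1, ABCG1 and STIL, and also, chosen after their values were seen, for STARD4, DHCR7, SC5D and LPIN1 and for genes that overlap ACAT2. Of each further list, the 3 called genes with the largest absolute log2 fold change and a mean log2 CPM of at least 1 were named. A gene that this rule names is not reported here. Gene positions and exon overlaps are those of GENCODE 29 (GRCh38).

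Alternatives were limma without the trend, quantile normalization, median centring, a minimum mean log2 CPM of 1, a prior count of 0.5, edgeR, DESeq2, an adjusted p under 0.05, a minimum absolute log2 fold change of 0.5, the replicate number as a block, and each library left out in turn.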

Additional observations from a re-analysis of the deposited data

How the results depend on the processing

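The number of genes called lower among the 35 was 23 and lay between 16 (absolute log2 fold change above 0.5) and 26 (adjusted p under 0.05) under every alternative, with 20 to 22 when 1 library was left out. The number called higher was 1. It was 0 without the trend and where the absolute log2 fold change had to exceed 0.5, 2 with quantile normalization, median centring, a mean log2 CPM of at least 1, edgeR, DESeq2 and an adjusted p under 0.05, and 0 to 1 when 1 library was left out. Over all genes 7509 were called, 3360 with that minimum change, and 4900 (without STIL-knockdown replicate 3) to 5638 when 1 library was left out.

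SC5D, at a log2 fold change of -0.02, turned to 0.0254 with median centring and ranged from -0.0546 to 0.0167 when 1 library was left out (0.0106 without STIL-knockdown replicate 3 and 0.0167 without control replicate 2). STARD4, at -0.04, turned to 0.0023 with median centring and ranged from -0.0924 to 0.0265 (without control replicate 2). Neither gene passed the threshold in these fits, and the cause was not tested. The 4 pair differences kept their direction in each alternative that was run for them, but that of FADS1 and FADS2 ranged from -0.15 to -0.0083 when 1 library was left out, and that of ABCA1 and ABCG1 from -3.59 to -0.48 over all alternatives. FADS1 was also not past the threshold without the trend, with quantile normalization and with median centring (limma adjusted p = 0.0468, 0.0166 and 0.0375), and SREBF1 and SREBF2 were not without the trend (0.0134 and 0.0525).

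Libraries with the same replicate number did not deviate together (correlations of deviations -0.12, -0.06 and -0.11 over 11319 genes). These correlations gave no sign of pairing by number, and whether the numbers mark a shared culture or batch was not tested. With the replicate block, 6898 genes were called, 22 of the 35 were lower and 1 was higher, and FADS1 was not past the threshold (limma adjusted p = 0.0139). Depth limits ABCA1 and ABCG1, for which no more than 13 reads were seen in a library.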
